A study of Mus musculus with 20 samples.

Results

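*Isl1* and *Shox2*, both genes of homeobox transcription factors, were followed through 5 regions of the mouse heart. Every probe that the array platform annotates to either gene was taken, whatever its values. This gave 4 probes of 25697, namely 1 for *Isl1* (ILMN_2727472) and 3 for *Shox2* (ILMN_2647121, ILMN_2997975 and ILMN_1226318), or 2 genes of the 16593 that the arrays name. No probe was lost to a filter on low values, since none was applied.

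The sinoatrial node (SA) is the small strip of muscle in the wall of the right atrium where each heartbeat starts. *Isl1* encodes a LIM homeodomain factor, which marks progenitors of the second heart field and later stays on in pacemaker cells, and which is also known from autonomic neurons. *Shox2* encodes a paired-like homeodomain factor of the venous pole, which holds back *Nkx2-5* in the forming node and acts upstream of *Isl1*. Loss of either gene in mouse embryos impairs the node.

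The regions were SA, the right atrium (RA), the left atrium (LA), the left ventricle (LV) and the right ventricle (RV), with 4 arrays each, all from male C57/BL6 mice aged 5 to 10 weeks. Each SA sample was pooled from several mice, and each LV was cut into pieces that served as samples, so arrays of LV may share a heart. The paper lists fewer mice than there are arrays and used several for each SA sample, so arrays of different regions probably share hearts too. The fit treats all arrays as independent. Nothing in the labels says that the arrays of a region are separate animals, so the errors and p-values given below cover the spread among these arrays, which may be partly technical. Values are z-scores, in which 0 is the mean and 1 the SD over all probes of that array. The numbers say where a probe lies within its array, they have no true zero, and no folds were formed from them.

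Before the results, 3 points about single arrays are needed. LV replicate 4 stood apart, with a mean Spearman correlation across probes of -0.041 with the other arrays, against 0.818 to 0.888 for the other 19. RV replicate 2 carries a right atrial name in its title, while its source, tissue and description give the right ventricle. Its values were unlike RA, since *Bmp10*, a growth factor gene of right atrial muscle, was at -0.51 in it and at 1.64 to 1.94 in RA. *Bmp10* was also low in the SA arrays, at -0.68 to -0.60, and in LA, at -0.70 to -0.62. Its summed z-score of 8 ventricular muscle genes was 13.21, against 12.18 to 13.21 over the 4 RV arrays and 1.6 to 3.32 in RA. For 8 atrial muscle genes its sum was 11.72, the highest of the RV arrays (4.44 to 11.72), against 24.49 to 26.16 in RA. The summed z-score of 7 measured node genes of 11 was 3.91 to 4.67 in SA and 0.43 to 1.03 in RA. Of the 7, 3 were higher in SA than in RA by limma (adjusted p within 0.05), as were 0.817% of all probes. *Cpne5* lay below the array median in every SA and RA array, and the paper states that *Hcn4* was not on this array. The list was chosen with earlier results of these data known, so the sum is no independent check of the label. In tissue samples, more node cells and more RNA per node cell cannot be told apart.

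As both genes were high in the node, the 250 bases before the annotated start of each gene are given from RefSeq (mouse build GRCm38.p6, both genes on the minus strand). The *Isl1* stretch is chr13:116309689-116309938 and the *Shox2* stretch is chr3:66981772-66982021. Capitals mark TAAT, the core that homeodomain proteins bind, read on both strands:
Isl1: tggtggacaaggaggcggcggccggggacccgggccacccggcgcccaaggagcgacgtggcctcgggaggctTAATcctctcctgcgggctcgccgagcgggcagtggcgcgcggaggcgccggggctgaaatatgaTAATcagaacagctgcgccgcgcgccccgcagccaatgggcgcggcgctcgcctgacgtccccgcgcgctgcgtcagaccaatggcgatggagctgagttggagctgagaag
Shox2: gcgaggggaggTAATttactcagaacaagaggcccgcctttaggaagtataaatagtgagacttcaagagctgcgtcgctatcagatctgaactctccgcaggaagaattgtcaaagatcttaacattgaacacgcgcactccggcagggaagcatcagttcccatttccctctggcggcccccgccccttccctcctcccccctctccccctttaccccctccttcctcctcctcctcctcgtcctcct
The *Isl1* stretch held 2 TAAT cores, 177 and 112 bases before the start, and the *Shox2* stretch held 1, 239 bases before it. TAAT occurred in 54.9% of the 32851 mouse promoter stretches of this length, so its presence sets neither gene apart. The T-box half-site AGGTGT (11.8%), the NKX site AAGTG (40.7%) and the GATA site AGATAA (9.99%) were in neither stretch. *Isl1* had 2 CCAAT boxes (33.8% of stretches), 80 and 34 bases before its start, and *Shox2* had the TATA box TATAAA (12.4%) 203 bases before its start. The *Isl1* stretch was the richer in G and C, with 71.2% against 55.6% for *Shox2*. All motifs were read on both strands, and a match is a description of the letters and no measure of binding.

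*Isl1* was higher in the node than in the other 4 regions. Its z-scores were 1.38, 1.08, 1.09 and 0.83 in SA replicates 1 to 4. In RA they were -0.33, -0.52, -0.42 and -0.52, and in LA -0.93, -0.78, -0.77 and -0.79. The ventricular values were -0.73, -0.69, -0.65 and -0.58 in LV, and -0.67, -0.75, -0.76 and -0.75 in RV. All 4 SA arrays lay above 0 and all 16 other arrays below it, without overlap. Within the SA arrays, 80.3% to 87.7% of all probes lay at or below *Isl1*. This share was 48.5% to 57.0% in RA, about the array median, and 1.78% to 17.7% in LA. SA arrays also differed most among themselves, with an SD of 0.22 around the mean of 1.10, compared with 0.042 to 0.091 in the other regions (n = 4 each).

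**Figure D1:**
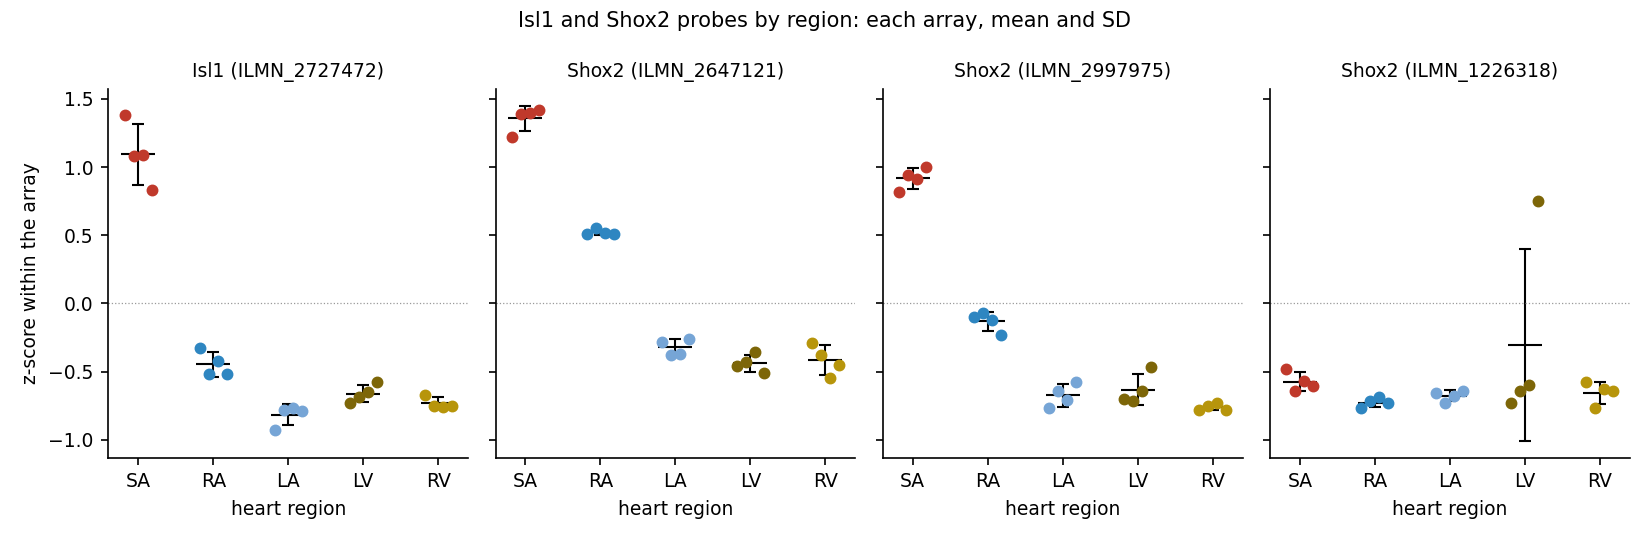
z-scores within the array (vertical axis) of the *Isl1* probe and the 3 *Shox2* probes in SA, RA, LA, LV and RV, 1 point per array, with the mean and SD of the 4 arrays as bars. The SA arrays of *Isl1* (0.83 to 1.38) lie above all others, *Shox2* steps down from SA over RA to the other regions at ILMN_2647121 and ILMN_2997975, and ILMN_1226318 is low except for 1 LV array at 0.75.

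In SA minus RA, *Isl1* was higher in the node by 1.54 ± 0.085 (SE, limma, adjusted p = 1.73e-08), rank 23 of 25697 probes by size and rank 3 by p. In that comparison 1.43% of all probes passed a Benjamini-Hochberg adjusted p of 0.05, 0.817% as higher in SA, and 0.611% as lower. In 5.93% of all probes the SA arrays lay above the RA arrays without overlap. The difference from LA was larger, at 1.91 ± 0.085 (adjusted p = 4.12e-10), in a comparison where 1.39% of probes passed, 0.852% as higher and 0.541% as lower, and SA lay above LA without overlap in 6.13%. Against the ventricles the differences were 1.76 ± 0.085 for LV (adjusted p = 5.85e-10) and 1.83 ± 0.085 for RV (adjusted p = 3.12e-10). These pairs separated more probes, as 7.2% passed against LV and 3.79% against RV, and SA lay above them without overlap in 9.12% and 12.6%. The two-sided exact permutation test gave p = 0.0286 for each of these 4 pairs, the smallest that 4 arrays against 4 can give.

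*Shox2* was also highest in the node, but its right atrial level was intermediate. At ILMN_2647121, SA replicates 1 to 4 had 1.22, 1.39, 1.40 and 1.42. RA had 0.51, 0.55, 0.52 and 0.51, and LA had -0.28, -0.38, -0.37 and -0.26. LV had -0.46, -0.43, -0.36 and -0.51, and RV had -0.29, -0.38, -0.55 and -0.45. The 4 SA arrays, the 4 RA arrays and the 12 remaining arrays formed 3 levels without overlap. Over all probes, SA lay above RA without overlap in 5.93%, and RA lay above LA in 3.03%, above LV in 10.7% and above RV in 13.3%. In SA arrays, 85.4% to 88.6% of all probes lay at or below *Shox2*. In RA this share was 74.6% to 75.3%, and the RA arrays were the most alike, with an SD of 0.019.

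The second probe, ILMN_2997975, gave the same 3 levels. Its z-scores were 0.82, 0.94, 0.91 and 1.0 in SA and -0.10, -0.07, -0.12 and -0.23 in RA. In LA they were -0.77, -0.64, -0.71 and -0.58, in LV -0.70, -0.72, -0.64 and -0.47, and in RV -0.78, -0.75, -0.73 and -0.78. SA again lay above RA, and RA above the other regions, with no overlap, and the shares of all probes given for the first probe hold here too. Levels of different probes are not compared, since probes differ in brightness.

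*Shox2* was higher in SA than in RA by 0.835 ± 0.059 at ILMN_2647121 (adjusted p = 1.66e-07) and by 1.05 ± 0.060 at ILMN_2997975 (adjusted p = 1.99e-08). Against LA the differences were 1.68 ± 0.059 and 1.59 ± 0.060 (adjusted p = 3.42e-11 and 6.35e-11), which were rank 1 and rank 2 by p among all probes. Against LV they were 1.80 and 1.55 (adjusted p = 5.65e-12 and 3.95e-11), and against RV 1.78 and 1.68 (adjusted p = 6.95e-12 and 1.81e-11). *Isl1* and both of these *Shox2* probes belonged to the 123 probes, of 109 named genes, that passed as higher in SA than in each of the other 4 regions. All 356 alternative settings of these 12 comparisons kept direction and call.

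**Figure D2:**
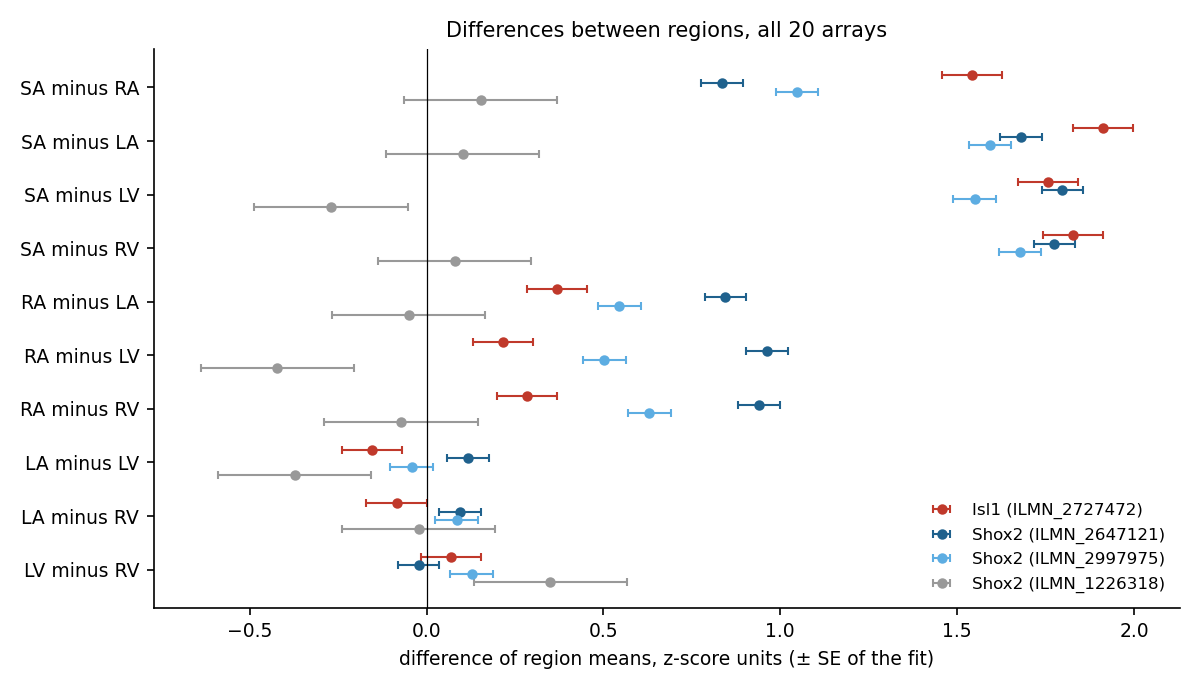
Differences of region means in z-score units (horizontal axis, ± SE of the fit over 20 arrays) for the 10 pairs of regions and the 4 probes. In the 4 pairs with SA, *Isl1* and 2 *Shox2* probes lie at 0.835 or more, while ILMN_1226318, with its LV array at 0.75, has the widest errors of the 4 probes and lies between -0.27 and 0.153.

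The third *Shox2* probe, ILMN_1226318, did not follow the others. Its z-scores were -0.48, -0.64, -0.57 and -0.61 in SA, -0.77, -0.72, -0.69 and -0.73 in RA, and -0.66, -0.73, -0.68 and -0.64 in LA. In RV they were -0.58, -0.77, -0.63 and -0.64, and in LV -0.73, -0.64, -0.60 and 0.75, the last in LV replicate 4, the array that stood apart. Apart from that array, all values lay between -0.77 and -0.48, and 14.7% to 50.4% of probes lay at or below it. No pair of regions passed the test with all 20 arrays, and over the 5 regions the moderated F had an adjusted p of 0.502. The F of the other 3 probes had adjusted p-values of 2.24e-10 (*Isl1*), 2.8e-12 (ILMN_2647121) and 1.68e-11 (ILMN_2997975), where 7.53% of all probes passed. SA arrays lay above RA arrays without overlap, as in 5.93% of all probes, by 0.153 ± 0.217 (adjusted p = 1). Without LV replicate 4 the same difference had an SE of 0.044 and passed (adjusted p = 0.0344, where 9.17% of all probes did), and at the other 2 *Shox2* probes the difference was 0.835 and 1.05. Where on *Shox2* each probe lies was not looked up here.

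At ILMN_2647121 and ILMN_2997975, *Shox2* also separated the atria. It was higher in RA than in LA by 0.845 ± 0.059 at ILMN_2647121 (adjusted p = 3.44e-07) and by 0.545 ± 0.060 at ILMN_2997975 (adjusted p = 8.94e-05). Few probes separated the atria, since 0.311% of all probes passed, 0.183% as higher in RA, and in 3.03% the RA arrays lay above the LA arrays without overlap. ILMN_2647121 was rank 6 and ILMN_2997975 rank 23 by p. At *Isl1* the atria did not overlap either, with -0.52 to -0.33 in RA and -0.93 to -0.77 in LA. Its difference of 0.37 ± 0.085 missed the threshold with all 20 arrays (adjusted p = 0.121). It passed without LV replicate 4 (adjusted p = 0.0143, where 1.9% of all probes did), without SA replicate 1 (0.0176) and without SA replicate 4 (0.0285). The summed z-score of the 7 node markers was 0.43 to 1.03 in RA and -1.70 to -1.12 in LA (neither *Isl1* nor *Shox2* is among them), and its part in these differences was not tested.

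RA was set against the ventricles in the same way. *Shox2* was higher in RA than in RV by 0.94 at ILMN_2647121 (adjusted p = 1.57e-08) and by 0.63 at ILMN_2997975 (adjusted p = 2.79e-06), where 3.6% of all probes passed. It was higher in RA than in LV by 0.963 and 0.503 (adjusted p = 1.04e-08 and 3.73e-05), where 8.02% passed. RA lay above RV without overlap in 13.3% of all probes, and above LV in 10.7%. *Isl1* differed by 0.285 from RV (adjusted p = 0.0882) and by 0.215 from LV (adjusted p = 0.11). Without LV replicate 4 both of these *Isl1* differences passed, at 0.285 (adjusted p = 0.0113) and 0.243 (adjusted p = 0.039), although 23.3% and 28.7% of all probes then passed in these pairs.

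At ILMN_2647121 and ILMN_2997975, the right minus left difference of *Shox2* was larger in the atria than in the ventricles. At ILMN_1226318 this contrast was 0.30 ± 0.31 (adjusted p = 0.552), and -0.052 without LV replicate 4. RA minus LA exceeded RV minus LV by 0.823 ± 0.083 at ILMN_2647121 (adjusted p = 6.63e-05) and by 0.672 ± 0.085 at ILMN_2997975 (adjusted p = 0.000698), in a test that 0.214% of all probes passed. With each array scaled by its median and median absolute deviation, the contrast at ILMN_2647121 no longer passed (adjusted p = 0.0779). In the ventricles the right minus left difference was 0.0225 at ILMN_2647121 and -0.128 at ILMN_2997975. For *Isl1* the same contrast was 0.44 ± 0.12 and missed the threshold (adjusted p = 0.305).

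Each atrium was then placed between the ventricles (mean of LV and RV, 0%) and the node (100%) on the scale of the probe itself. RA stood at 53.3% of this distance for *Shox2* at ILMN_2647121 and at 35.1% at ILMN_2997975, but at 13.9% for *Isl1*. Leaving out any 1 array gave 51.9% to 53.9%, 33.8% to 37.2% and 11.8% to 15.3%. These ranges show the weight of single arrays and are no error of the shares. The 2 probes of *Shox2* lay about as far apart as ILMN_2997975 and *Isl1* did, and the difference between the genes was not tested. Single RA arrays ran from 52.6% to 54.8% and from 28.9% to 38.8% for the 2 *Shox2* probes and from 9.9% to 20.5% for *Isl1*. LA stood near the ventricles, at 5.95% and 1.32% for *Shox2* and at -6.69% for *Isl1*. Z-scores need not be proportional to the amount of RNA, so the shares are not shares of transcript. RA borders the node, and how much node tissue the RA samples held was not tested.

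**Figure D3:**
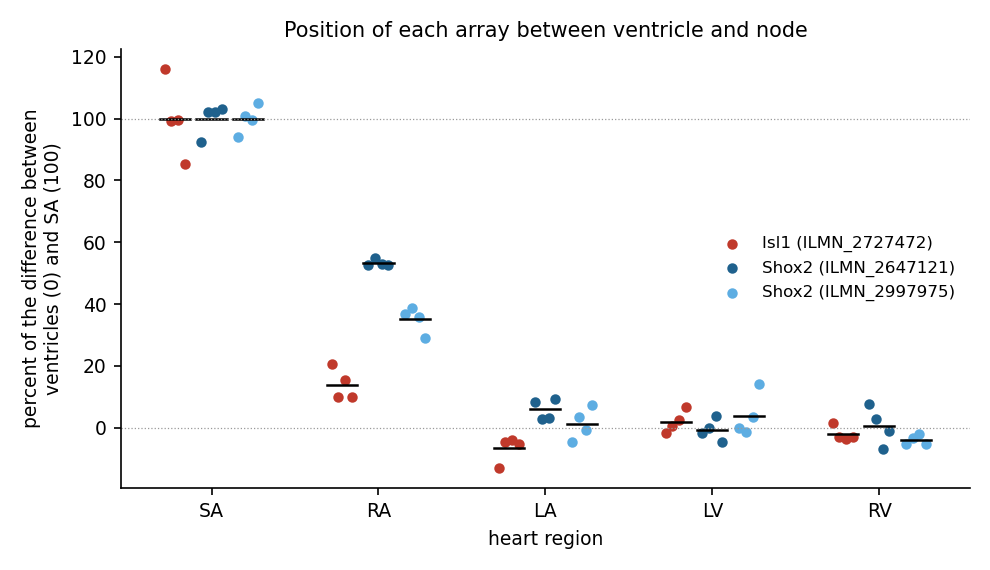
Position of each array between the mean of both ventricles (0) and the SA mean (100), in percent (vertical axis), for *Isl1* and the 2 *Shox2* probes that follow the node, with region means as lines. RA arrays lie at 52.6 to 54.8 for *Shox2* ILMN_2647121, at 28.9 to 38.8 for ILMN_2997975 and at 9.9 to 20.5 for *Isl1*.

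Below the node and RA, no pair of LA, LV and RV passed the limma test at *Isl1* or *Shox2*, though some did not overlap. *Isl1* followed the order SA, RA, LV, RV, LA. LV and RV overlapped, with a difference of 0.07 (adjusted p = 0.513, 0.0156% of all probes passed). LA arrays, at -0.93 to -0.77, all lay below RV arrays, at -0.76 to -0.67. The LA minus RV difference was -0.085 (adjusted p = 1), where 2.67% of all probes passed and LA lay below RV without overlap in 11.9%. LA arrays also lay below LV arrays, with a difference of -0.155 (adjusted p = 0.171). In that pair 7.55% of all probes passed, and LA lay below LV without overlap in 10.7%. The exact permutation test gave an unadjusted p of 0.0286 for LA against either ventricle, the smallest it can give. *Shox2* at ILMN_2647121 had the order SA, RA, LA, RV, LV, with 0.095 for LA minus RV (adjusted p = 0.906) and -0.0225 for LV minus RV (adjusted p = 0.766). At ILMN_2997975 the last 3 were LV, LA and RV, with -0.0425 for LA minus LV (adjusted p = 0.57) and 0.085 for LA minus RV (adjusted p = 1). At that probe LV arrays lay above RV arrays without overlap, as in 3.77% of all probes, by 0.128 (adjusted p = 0.271, unadjusted exact permutation p = 0.0286).

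The likeness of patterns over the 20 arrays is given as a description, since arrays of a region share its level. *Isl1* and *Shox2* had a Pearson r of 0.906 at ILMN_2647121 and 0.961 at ILMN_2997975, and these 2 *Shox2* probes had 0.972 with each other. ILMN_1226318 had 0.0446 with *Isl1*, and -0.133 and 0.0165 with the other *Shox2* probes. Of all named genes, *Alox8*, a lipoxygenase gene, was the most like *Isl1* (r = 0.988), with means of 0.935 in SA, -0.34 in RA and -0.808 in LA. *Tenm4*, a teneurin of the cell surface (0.977), and *Avp*, the vasopressin gene (0.968), came next. *Shox2* was the fourth, followed by *Tyrp1* (0.96), a pigment cell enzyme gene, *Car5b* (0.96), *Clstn3* (0.959) and the netrin receptor gene *Unc5c* (0.957).

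The 8 genes most like *Shox2* at ILMN_2647121 were chosen for that likeness, so their levels are a description. *Gcgr*, the glucagon receptor gene (r = 0.978), had means of 0.878 in SA, 0.153 in RA and -0.593 in LA. *Gjd3*, a connexin of the conduction system in mice (0.958), and *Cacna1g*, the T-type calcium channel of pacemaker cells (0.955), followed. The other 5 were *Ftcd* (0.954), *Flrt3* (0.947), *Adam33* (0.945), *Ntm* (0.934) and *Apoc1* (0.929). ILMN_2997975 shared *Gcgr*, *Cacna1g*, *Flrt3* and *Adam33* with that probe, and *Alox8* (0.976) and *Tenm4* (0.965) with *Isl1*. Its remaining 2 were *Isl1* and the glutamate receptor gene *Gria1* (0.937). These lists of 8 depend on the measure, because with Spearman's rho 3 of the 8 stayed for *Isl1* and 0 for either *Shox2* probe. The genes most like ILMN_1226318, led by *Rtkn* (0.988), were so with LV replicate 4, without which *Rtkn* had 0.724.

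A list of cardiac transcription factors, which mixes factors of the node, of working muscle and of the heart in general, held calls in both directions. Of 14 measured genes of 15 in this list, 0 were higher and 2 lower in SA than in RA (median difference -0.0187, against 0 over all probes), where 1.43% of all probes passed. Against LA, 1 was higher and 1 lower in SA (median 0.0325, against -0.0025), where 1.39% of all probes passed. Without LV replicate 4 the counts were 2 and 4 against RA, and 3 and 3 against LA, when 9.17% and 10.2% of all probes passed. *Tbx3*, whose protein represses working muscle genes in the node, had means of 1.69 ± 0.090 in SA, 0.70 ± 0.11 in RA and 0.19 ± 0.091 in LA (SD, n = 4). It was higher in SA than in LA by 1.5 ± 0.34 (adjusted p = 0.0334), a call lost without any 1 array of SA or LA (up to 0.102). Against RA it differed by 0.992 ± 0.34 (adjusted p = 0.317, and 0.0259 without LV replicate 3).

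*Foxc1*, a forkhead factor of heart and vessel development, was lower in SA than in RA (-0.578 ± 0.096, adjusted p = 0.0023). Against LA its difference was -0.42 ± 0.096 (adjusted p = 0.0349, a call lost without any 1 of 9 arrays, up to 0.148). *Tbx20*, a T-box factor of working muscle, was at 0.06 to 0.49 in SA and 0.93 to 1.09 in RA. Its difference of -0.732 ± 0.17 passed with all arrays (adjusted p = 0.0358), was lost without any of 13 single arrays (up to 0.143) and had an adjusted p of 9.53e-05 without LV replicate 4. *Nkx2-5*, the factor that *Shox2* is known to hold back, lay at 0.52 to 0.65 in SA, below 1.0 to 1.22 in RA and 0.94 to 1.22 in LA. The difference of -0.552 ± 0.25 from RA had an adjusted p of 0.747 with all 20 arrays and 5.53e-06 without LV replicate 4, and that from LA had 0.927 and 2.12e-05. *Tbx18*, a factor of the node's head, differed by 0.232 ± 0.070 from RA (adjusted p = 0.174, and 0.0276 without LV replicate 4). *Tbx5*, which activates atrial genes, differed by -0.197 ± 0.088 (adjusted p = 0.751).

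**Figure D4:**
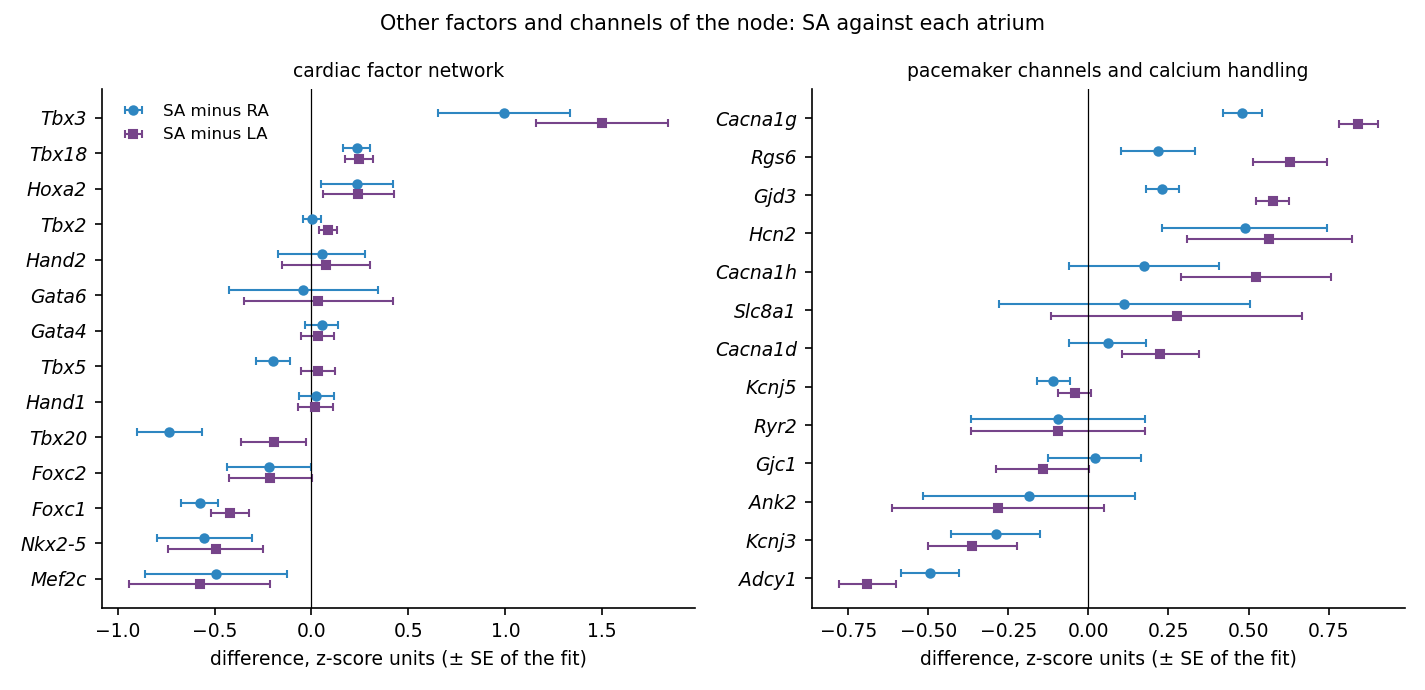
Differences in z-score units (horizontal axis, ± SE of the fit) of SA minus RA (circles) and SA minus LA (squares) for 14 cardiac transcription factor genes (left) and 13 genes of pacemaker channels and calcium handling (right). *Tbx3* lies at 0.992 and 1.5 and *Cacna1g* at 0.48 and 0.843, and *Foxc1* (-0.578) and *Adcy1* (-0.495) lie below 0.

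Of 13 measured genes of 16 for pacemaker channels and calcium handling, 2 were higher and 1 lower in SA than in RA, where 1.43% of all probes passed. Against LA, 3 were higher and 1 lower in SA (1.39% of all probes passed), and 2 were higher in RA (0.311% passed). The median differences were 0.06 for SA minus RA and 0.225 for SA minus LA. Without LV replicate 4 the counts were 4 and 2, 7 and 3, and 4, when 9.17%, 10.2% and 1.9% of all probes passed. *Cacna1g* had the same 3 steps as *Shox2*, being higher in SA than in RA by 0.48 ± 0.061 (adjusted p = 0.000164) and higher in RA than in LA by 0.362 ± 0.061 (adjusted p = 0.00979). The call between the atria was lost without LA replicate 4 or RA replicate 2 (up to 0.0565). *Gjd3* was higher in SA than in RA by 0.23 ± 0.052 (adjusted p = 0.0301, lost without any of 7 arrays, up to 0.126) and higher in RA than in LA by 0.345 ± 0.052 (adjusted p = 0.00295). *Rgs6*, a regulator of vagal signalling in the node, was higher in SA than in LA by 0.63 ± 0.12 (adjusted p = 0.00654). *Adcy1*, a calcium-stimulated adenylyl cyclase gene, was lower in SA than in RA (-0.495 ± 0.091, adjusted p = 0.00567) and LA (-0.69 ± 0.091, adjusted p = 0.000251). Of 6 measured genes of 8 for working muscle, 0 passed against RA or LA, and without LV replicate 4 the number lower in SA was 2 against RA and 3 against LA.

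The partners and relatives of the pair were tested next. LIM homeodomain factors work in complexes with LDB cofactors, and of 10 measured genes of such LIM partners 0 passed in SA minus RA or SA minus LA (median differences -0.0262 and -0.00625). Over all probes 1.43% and 1.39% passed, so lists as short as those of this paragraph would hold few calls or none at that share. *Ldb1*, the main cofactor gene, was high in every atrial and node array, at 2.45 to 2.53 in SA, 2.48 to 2.65 in RA and 2.33 to 2.76 in LA, with a difference of -0.07 ± 0.46 from RA (adjusted p = 1). Of 11 measured LIM homeobox relatives, 0 passed in these 2 comparisons, and *Isl2*, the closest relative of *Isl1*, was at -0.88 to -0.69 in SA and -0.77 to -0.74 in RA. Of 13 measured paired-like homeobox genes of 19, relatives of *Shox2*, 0 passed (medians 0.0225 and 0.015). Of 12 growth factor genes of heart field and node, 0 passed, and *Bmp4*, a signal of the developing heart, was at 1.09 to 1.30 in SA and 0.64 to 0.96 in RA. The *Bmp4* difference of 0.365 ± 0.22 had an adjusted p of 1, and of 0.0082 without LV replicate 4. Without that array, 2 of the LIM partners and 1 paired-like gene passed as lower in SA than in RA and 1 growth factor gene as higher, while the LIM homeobox relatives stayed at 0. In that setting 4.82% of all probes passed as lower and 4.35% as higher in SA minus RA. In SA minus LA, 1 LIM partner and 1 paired-like gene then passed as lower and 1 growth factor gene as higher. There 5.16% of all probes passed as lower and 5.02% as higher.

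Markers of other cells differed between the node and atrial samples. Since *Isl1* is also a gene of autonomic neurons, 19 neuron genes were summed, of which 18 were measured. The sum was -0.6, -3.55, -7.64 and -8.55 in SA replicates 1 to 4, against -10.52 to -7.06 in RA and -11.68 to -11.23 in LA. Of the 18 genes, 1 passed as higher in SA than in RA and 4 as higher than in LA, as did 0.817% and 0.852% of all probes. Without LV replicate 4 these counts were 4 and 10, and the shares of all probes 4.35% and 5.02%. The gene higher in SA than in RA was *Ret*, a receptor of neurons (0.463 ± 0.079, adjusted p = 0.00305). Those higher than in LA, with the SA minus LA difference, were *Dbh* (1.03) and *Ddc* (0.905), enzyme genes of catecholamine synthesis, *Stmn2* (0.985), a gene of growing axons, and *Chrna3* (0.495), a nicotinic receptor subunit gene. Leaving out SA replicate 1, which had the highest sum, changed no call of *Isl1* between SA and another region. This is no test of neurons, as the other SA arrays also had sums above those of LA. *Phox2a*, a defining gene of autonomic neurons, was at -0.60 to 0.07 in SA and -0.68 to -0.37 in RA, and 5 of the 18 neuron genes, *Slc18a2*, *Snap25*, *Elavl4*, *Tubb3* and *Nefl*, lay below the array median in every SA array. The part of neurons in the *Isl1* difference was not tested.

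**Figure D5:**
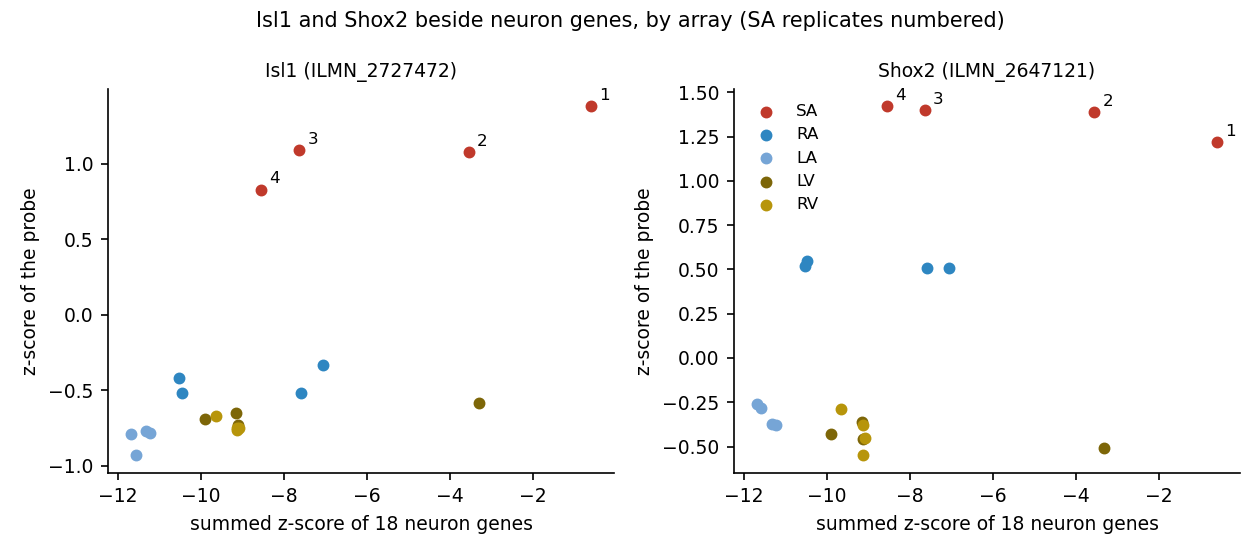
z-score of *Isl1* (left) and of *Shox2* ILMN_2647121 (right) on the vertical axis against the summed z-score of 18 neuron genes (horizontal axis), 1 point per array, SA arrays numbered by replicate. SA replicate 1, with a neuron sum of -0.6, has *Isl1* at 1.38 and *Shox2* at 1.22, and SA replicate 4, with a sum of -8.55, has them at 0.83 and 1.42.

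Summed markers of fat, smooth muscle and airway were also higher in SA arrays, those of airway mostly in SA replicate 2. The sum of 10 measured adipocyte genes of 11 was 9.35 to 12.97 in SA and 0.08 to 1.98 in RA, with 7 genes higher in SA by the test, as were 0.817% of all probes. By SA minus RA difference, these included *Adipoq*, the adiponectin gene (2.36), *Car3*, a carbonic anhydrase gene (2.03), *Cidec*, a lipid droplet gene (1.79), and *Scd1*, a fatty acid desaturase gene (1.79). *Fabp4* and *Retn* lay below the array median in every array of all regions. The sum of 8 smooth muscle genes was 9.97 to 12.6 in SA and 5.75 to 6.86 in RA, with 4 genes higher. The sum of 9 measured lung and airway genes of 10 was -5.24, 7.73, -3.5 and -3.7 in SA replicates 1 to 4 and -6.49 to -6.02 in RA. Of these genes 0 were past the test in SA minus RA. Without LV replicate 4, 2 were higher in SA, as were 4.35% of all probes. Cartilage genes were included because *Shox2* is also a gene of the growing limb, and they summed to -5.61 to -4.92 in SA and -4.10 to -3.66 in RA. Of the 8, *Col2a1*, *Acan*, *Matn1*, *Matn3*, *Cnmd* and *Hapln1* lay below the array median in every SA, RA and LA array. The part of fat, smooth muscle and airway tissue in the *Isl1* and *Shox2* differences was not tested.

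A neighbouring gene was measured because it overlaps *Shox2*. On GRCm38.p6 the annotated *Rsrc1* begins inside the 5′ end of *Shox2*, and the *Shox2* stretch printed above lies inside *Rsrc1*. One *Rsrc1* probe (ILMN_2630512) was at 1.22 to 1.45 in SA, 0.71 to 0.91 in RA and 0.59 to 0.78 in LA. It differed by 0.522 ± 0.16 in SA minus RA (adjusted p = 0.203, and 6.06e-06 without LV replicate 4) and by 0.14 ± 0.16 in RA minus LA (adjusted p = 1). In SA minus LA it differed by 0.662 ± 0.16 (adjusted p = 0.0532), which passed without LV replicate 1, 2 or 4 (down to 3.51e-07). The other (ILMN_2754787) was at 0.60 to 0.78 in SA and 0.76 to 0.94 in RA, a difference of -0.147 ± 0.15 (adjusted p = 1). Neither *Rsrc1* probe passed in RA minus LA, the pair in which both node-following *Shox2* probes did. The part of the overlap in the *Shox2* values was not tested.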

How the data were processed

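Total RNA of 20 heart samples was labelled and read on Illumina MouseRef-8 v2 bead arrays, and the labels name BeadStudio and GenomeStudio 2011.1. The authors describe log2 signals after addition of a constant, with array medians aligned by limma. The deposited values are a score per probe, with mean 0 and SD 1 on each array and medians of -0.50 to -0.40, and how they were made from those signals is not given in the sources used here. They were therefore analysed as z-scores as deposited, with no further normalization and no filter.

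Probes were named through the identifiers of the platform annotation. Of 25697 probes, 23978 carried 1 gene symbol and 1719 none. Of several probes of a list gene, the brightest on average over all arrays was taken. A mean per region was fitted to all 20 arrays with limma 3.58.1 (R 4.3.3), moderated by empirical Bayes. Pairs of regions were tested two-sided, with Benjamini-Hochberg adjustment over all 25697 probes and a threshold of 0.05. Errors of differences are SEs of the fit and errors of means are SDs. The number of arrays limits the precision. The test was run on simulated data first. The 2 pairs RA minus LV and LA minus RV, the list counts without LV replicate 4 and the single-array checks of list genes were added after seeing the data.

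The genes named were all probes of *Isl1* and *Shox2*, the 8 genes most like each probe by Pearson's r over 20 arrays, up to 4 list members past the threshold per list, and a fixed set, of which *Tbx3*, *Tbx18*, *Tbx5*, *Nkx2-5*, *Bmp4*, *Isl2* and *Ldb1* are given and the rest is not reported here. Of marker lists, the members at the bottom of the scale were named. *Phox2a*, *Rsrc1*, *Rtkn* and the neuron and fat genes past the threshold were named after their values were seen. The members and lists were chosen with earlier results of these data known. The study used 18 arrays, with 2 of LV, and which 2 is not given in the sources used here, so all were kept. Alternatives were other scalings, a filter, array weights, single arrays left out, a block for the replicate number and exact permutation.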

Additional observations from a re-analysis of the deposited data

Results flagged for a closer look

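Of 20 sets of 4 arrays (4 probes in 5 regions), 4 held an array whose gap to the nearest other array took nearly the whole range of the set, and chance gives about 1 in 20. For *Isl1* these were the lowest LA array (-0.93) and the highest RV array (-0.67). For *Shox2* they were the lowest SA array at ILMN_2647121 (1.22) and the highest LV array at ILMN_1226318 (0.75, in LV replicate 4). Leaving out any of these arrays moved no call of *Isl1*, ILMN_2647121 or ILMN_2997975 between SA and another region.

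The right minus left difference of *Shox2* differed between atria and ventricles, by 0.823 at ILMN_2647121 (limma, adjusted p = 6.63e-05) and by 0.672 at ILMN_2997975 (adjusted p = 0.000698). At ILMN_1226318 it did not pass (0.30, adjusted p = 0.552).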

How the results depend on the processing

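All 356 alternatives of SA against RA, LA, LV or RV at *Isl1*, ILMN_2647121 and ILMN_2997975 kept direction and call, among them the *Isl1* difference SA minus RA of 1.54 with the replicate number as a block (adjusted p = 5.13e-07). The labels' replicate numbers were not taken to pair the arrays, since 8 of 40 same-numbered pairs correlated above 0.1 (r of -0.305 to 0.482). LV and RV titles share a second set of numbers, in the same order, and these 4 pairs had r of 0.0118 to 0.0972. With so few arrays per region, such correlations cannot decide whether arrays are paired. Since the paper lists fewer mice than there are arrays, some arrays share hearts, and which ones is not given in the sources used here. With the block 345 probes passed in SA minus RA against 367 without it, and no member call changed.

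*Isl1* RA minus LA (0.331 to 0.394 with single arrays left out) and RA minus RV (0.246 to 0.309) missed the threshold with all arrays. With array weights they passed at 0.343 (adjusted p = 0.00643) and 0.275 (0.00201), without LV replicates 3 and 4 at 0.37 (0.0147) and 0.285 (0.0117), and with only the 2 regions at 0.37 (0.00475) and 0.285 (0.000826). Exact permutation gave an unadjusted p of 0.0286 for both, at 0.37 and 0.285, and for *Isl1* in LA minus LV (-0.155), LA minus RV (-0.085) and RA minus LV (0.215), ILMN_2997975 in LV minus RV (0.128) and ILMN_1226318 in SA minus RA (0.153). With median and MAD scaling, RA minus RV passed at 0.69 (0.0282), while the *Shox2* contrast of atria and ventricles at ILMN_2647121 no longer did, at 1.71 on that scale (0.0779). The LA position of *Isl1* moved to -3.12% with quantile normalization and -3.1% with MAD scaling, and that of ILMN_2997975 to 5.25% with quantile normalization.

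Signs that turned were of differences that never passed. At ILMN_1226318, SA minus LV was 0.087 with array weights, 0.11 without LV replicates 3 and 4, and -0.412 to 0.082 with single arrays left out. LV minus RV was -0.020, -0.03 and -0.0017 to 0.492 in the same settings, and the contrast of atria and ventricles was -0.072, -0.08 and -0.052 to 0.442. LA minus LV was 0.0075 without LV replicates 3 and 4, and LA minus RV was -0.061 to 0.0025 with single arrays left out. LV minus RV at ILMN_2647121 ran from -0.067 to 0.02. LA minus LV at ILMN_2997975 was 0.045 with quantile normalization, 0.065 with MAD scaling, 0.038 with array weights, 0.035 without LV replicates 3 and 4, and -0.074 to 0.012 with single arrays left out.

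The count of all probes past the threshold moved under several settings. Without LV replicate 4, 2356 probes passed in SA minus RA, 2616 in SA minus LA, 7230 in SA minus LV, 6173 in SA minus RV, 488 in RA minus LA, 5985 in RA minus RV, 7306 in LA minus LV and 363 in LV minus RV. With all arrays these counts were 367, 358, 1851, 973, 80, 926, 1939 and 4. For list genes this array decides many calls, and for *Isl1* and *Shox2* it changes those of *Isl1* between RA and LA, LV or RV and that of ILMN_1226318 in SA minus RA. In the same order the counts were 2744, 2439, 5861, 6812, 634, 7612, 5645 and 472 with array weights, 2647, 2896, 5407, 6685, 574, 6497, 5167 and 259 without LV replicates 3 and 4, and 2273, 2080, 234, 6433, 426, 7050, 183 and 0 with only the 2 regions fitted. With only probes above 0 in some array they were 200, 192, 1228, 586 and 42 in the first 5 pairs and 1259 in LA minus LV, and with MAD scaling 955 in SA minus LV, 639 in SA minus RV, 50 in RA minus LA, 565 in RA minus RV and 793 in LA minus LV. Quantile normalization gave 1065 in LA minus LV. Leaving out other single arrays gave 1019 to 4725 in SA minus LV, down to 49 in RA minus LA, 952 to 5018 in LA minus LV and up to 7 in LV minus RV. The causes were not tested. Signal over background could not be checked, since detection values were not used here.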
